A study of Mus musculus with 7 samples.

Results

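The Wnt pathway genes of embryonic mouse cortical cells were followed after knockdown of Trnp1, a nuclear protein of cortical progenitors. They were chosen by gene symbol, with earlier results of these data known. The set comprised all genes named Wnt, Fzd, Rspo, Dkk, Sfrp or Dvl with a number, and a list of co-receptors, receptors of R-spondins, ubiquitin ligases, components of the destruction complex, TCF/LEF factors and induced targets given by name. A probe set naming a single gene was found for 62 of the 63 genes that fit this choice, out of 19938 genes measured in that way. Tcf7 was not analysed here. All 7 samples came from C57BL/6 cerebral cortex on embryonic day 14. A day earlier, on embryonic day 13, these cortices received constructs by electroporation together with GFP, a fluorescent marker of the transfected cells. After 24 h the fluorescent cells were sorted, and their RNA, amplified before labelling, was put on 1 Affymetrix array per sample. The genotype label is Trnp1 knockdown for 3 samples and WT for the 4 controls, and sex was not determined. All are labelled as biological replicates. What the knockdown and control constructs were, and how many embryos made up a sample, is not stated by the labels. The comparison asks how transcripts differ 1 day after the knockdown.

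Wnt proteins are secreted ligands that bind Frizzled receptors together with Lrp5 or Lrp6. In the canonical branch, this stops a complex built on Axin and Apc from marking beta-catenin for destruction, and beta-catenin then enters the nucleus and activates genes through TCF/LEF factors. Several of the activated genes, among them Axin2, Nkd1 and Notum, dampen the pathway again, and their transcripts are widely read as a measure of its activity. In the embryonic cortex the pathway is known for keeping radial glia dividing, for the signalling of the cortical hem at the medial edge, and for the growth of brain vessels.

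All values are log2 levels by RMA (robust multi-array average), in which 1 unit is a doubling of the signal of a probe set, and levels of different genes are not comparable. Precision is limited by there being 4 and 3 arrays, whose medians lay between 4.398 and 4.61. Trnp1 itself had a mean of 5.13 ± 0.12 (SD, n = 4) in the controls and was at 4.80, 4.85 and 4.55 in the knockdown samples, where every knockdown array lay below every control array. The difference was -0.40 (SE 0.12), or 0.758-fold, with p = 0.0286 by the exact two-sided permutation test. That is the smallest p that 35 splits can give, and the adjusted p by limma was 0.825. Of all genes, 3.07% likewise had every knockdown array below every control.

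Markers of the dorsal cortex were bright in all samples. Over 10 of the 11 markers on that list, their summed log2 level lay between 89.7 and 94.6 in controls and between 88.6 and 91.1 in knockdown samples. Markers of other cells differed between samples of the same group. The summed level of 8 choroid plexus markers ranged from 31.4 to 60.6 in controls and from 31.7 to 49.2 in knockdown samples, and the highest array of each group was control replicate 4 and knockdown replicate 2. For 10 endothelial and mural markers the ranges were 41.7 to 64.1 and 49.5 to 70.3, with control replicate 4 and knockdown replicate 1 highest. For 7 markers of the ventral telencephalon they were 29.3 to 31.2 and 32.4 to 47.0, with knockdown replicate 2 highest. For 6 microglia markers they were 34.4 to 51.7 and 39.5 to 47.1, for 8 mesenchymal markers 31.2 to 32.6 and 32.0 to 37.6, and for 10 of 11 cortical hem markers, 6 of which are Wnt or R-spondin genes, 38.9 to 47.0 and 40.0 to 41.9. Knockdown samples had the higher mean for all 10 endothelial and mural, all 7 ventral, all 8 mesenchymal and all 6 microglia markers. Of all genes, 49.8% had the higher mean there. The median differences of these lists, in that order, were 1.00, 1.07, 0.17 and 0.18. Their median SDs within groups were 1.14, 0.66, 0.25 and 1.17. The mesenchymal markers Lum, Foxd1 and Dcn were highest in knockdown replicate 2, at 4.34, 4.45 and 6.38. Dorsal cortex markers had the lower mean in knockdown samples for 8 of the 10. In 3 of these, Dcx, Emx1 and Neurod6, every knockdown array lay below every control, by -0.52, -0.36 and -0.71, with an adjusted p of 0.825 for each by limma. This was so for 3.07% of all genes. The 10 dorsal cortex markers all had probe sets brighter than the median of all genes, and differences followed the level in the whole table. The median difference of all genes was -0.099 at levels from 6 to 8 and -0.161 at 8 and above. Every knockdown array lay above every control in 3 of the 7 ventral markers, Dlx5, Gad2 and Gsx2, also with an adjusted p of 0.825 each by limma. That held for 2.59% of all genes. The part of these cell types in the Wnt values was not tested. The lowest value in the whole table was 1.97 on this scale, so a level above 0 does not show that a marker was expressed. In sorted but mixed cells, fewer cells of a type and less RNA per cell cannot be told apart.

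No Wnt gene passed the test. Of the 62 genes, 0 had an adjusted p under 0.05 by limma with Benjamini-Hochberg adjustment over all genes, as did 0% of all genes, and the smallest adjusted p among them was 0.825. In knockdown samples 33 genes had a higher mean and 29 a lower one. Their median log2 difference was 0.013, beside -0.001 for all genes, of which 49.8% were higher. At an unadjusted p under 0.05 there was 1 Wnt gene lower, Wnt7b, which is 1.61% of the set beside 3.61% of all genes, and 0 were higher beside 2.20% of all genes. The groups did not overlap for 3 Wnt genes, or 4.84% of the set, beside 5.67% of all genes. These were Notum and Lgr5, higher in every knockdown array (2.59% of all genes), and Fzd10, lower in every knockdown array (3.07% of all genes). All of these shares are near the background or below it. A difference of more than 0.5 in either direction was seen for 6 Wnt genes (9.68%, beside 8.46% of all genes), namely Sfrp4, Wnt7b and Fzd1 on the lower side and Rspo3, Fzd4 and Tcf7l2 on the higher side.

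**Figure D1:**
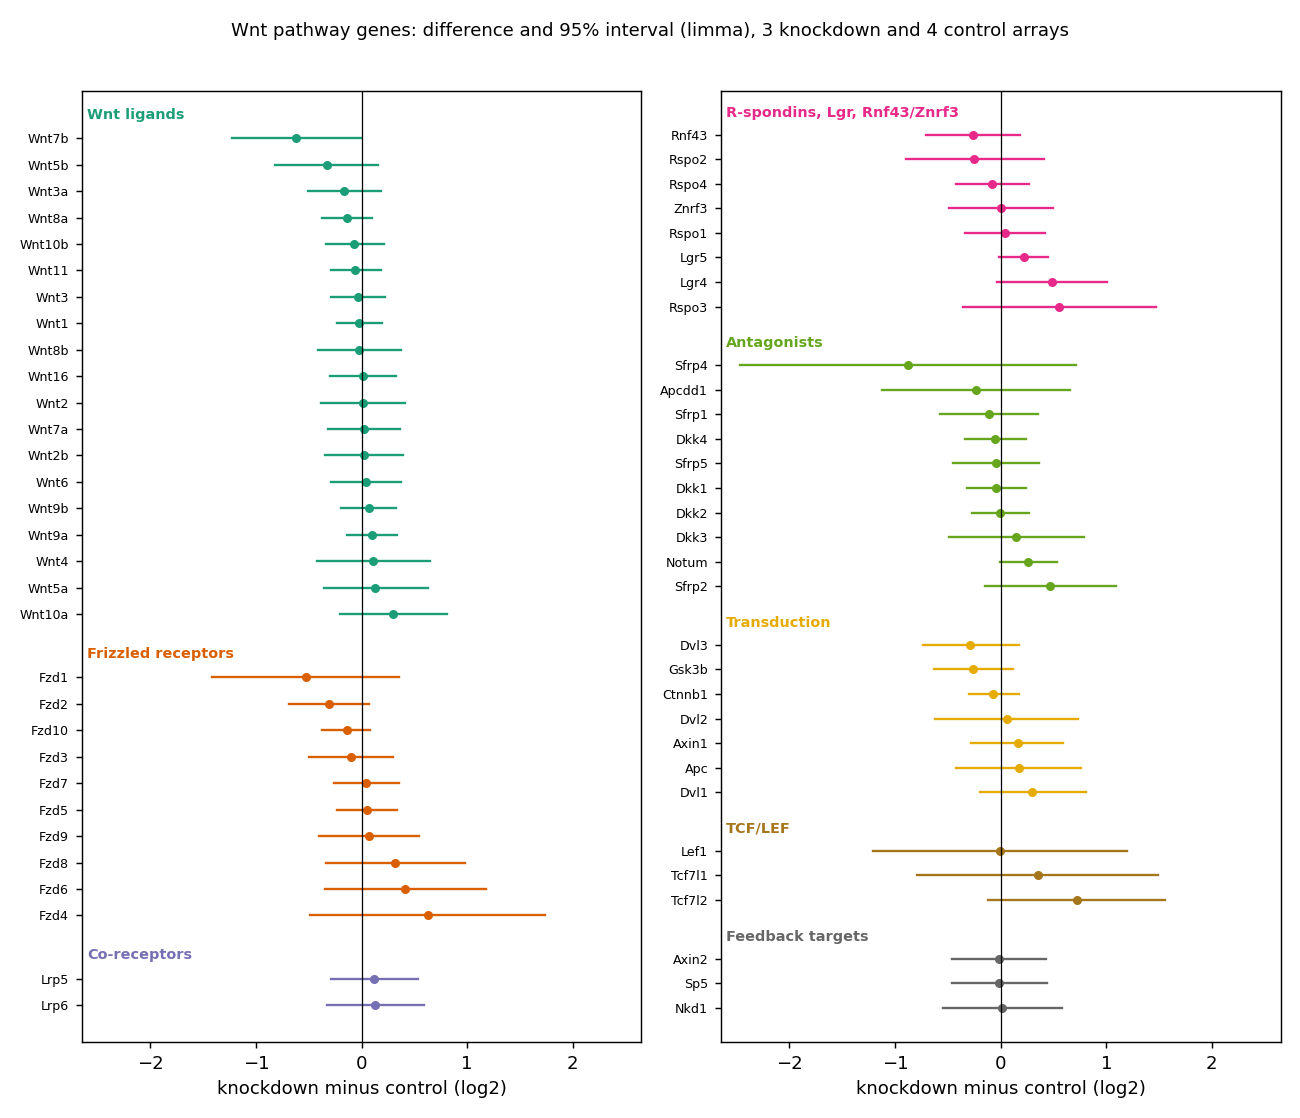
Difference of each of the 62 Wnt genes between 3 knockdown and 4 control arrays on the log2 scale (x axis), with the 95% interval of limma as a bar, ordered by role and size. Apart from Wnt7b, whose interval ends at -0.0035, every interval includes 0, and the widest is that of Sfrp4.

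Among the 19 Wnt ligands, 10 had a higher mean in knockdown samples and 9 a lower one, with a median difference of 0.014. Wnt7b (Entrez 22422), which signals through beta-catenin and is needed for the growth of vessels into the brain, had the brightest probe set of the ligands and the smallest p of all Wnt genes. Its log2 level was 6.15, 6.12, 6.78 and 6.80 in the controls and 5.87, 5.42 and 6.24 in the knockdown samples. Knockdown replicates 1 and 2 lay below all controls, while replicate 3 lay above control replicates 1 and 2, so the groups overlapped. The means were 6.46 ± 0.38 (SD, n = 4) and 5.84 ± 0.41 (SD, n = 3). The difference was -0.62 (SE 0.26, 95% interval -1.23 to -0.0035), or 0.651-fold, with an unadjusted p of 0.049 and an adjusted p of 0.825 by limma. Leaving out knockdown replicate 2 gave -0.41, and leaving out replicate 3 gave -0.82. The closely related Wnt7a, which acts with Wnt7b on brain vessels, was at 5.70, 5.66, 5.44 and 5.27 in the controls. Its knockdown arrays, at 5.72, 5.44 and 5.44, lay within the spread of the controls, apart from replicate 1 just above it.

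Wnt5b and Wnt4, ligands best known for acting without beta-catenin, also had probe sets brighter than the median of all genes (4.87), which was true of 4 of the 19 ligands. Wnt5b was at 5.51, 5.41, 5.60 and 5.17 in controls and at 4.79, 4.90 and 5.58 in knockdown samples. For this gene knockdown replicates 1 and 2 lay below every control and replicate 3 among them. Wnt4 was between 4.98 and 5.48 in controls and at 5.07, 4.98 and 5.79 in knockdown samples. The other 15 ligands were dimmer than that median. They include the ligands of the cortical hem: Wnt3a had means of 3.71 ± 0.19 (SD, n = 4) and 3.54 ± 0.19 (SD, n = 3), and Wnt2b, Wnt5a and Wnt8b had control means of 3.35, 3.65 and 3.32 and knockdown means of 3.37, 3.78 and 3.30. Wnt1 and Wnt3 stayed between 3.21 and 3.48 in all arrays. Wnt10a was the dim ligand with the largest difference, with knockdown replicate 3 at 5.35, while its other arrays lay between 4.33 and 4.77.

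Of the 10 Frizzled receptors, 6 had a higher mean in knockdown samples and 4 a lower one, with a median of 0.049. Fzd2 (Entrez 57265) had the brightest probe set of the family. It was at 8.89, 9.22, 9.13 and 8.85 in controls and at 8.99, 8.48 and 8.65 in knockdown samples, a difference of -0.31 (SE 0.16). Knockdown replicate 1 lay among the controls and the other knockdown arrays below them, and the difference ranged from -0.45 without knockdown replicate 1 to -0.20 without replicate 2. It was -0.18 by cyclic loess, -0.20 by quantiles and -0.42 with equal array medians. Fzd10, a receptor of the dorsal midline of the neural tube, was at 3.97, 4.15, 4.04 and 4.06 in controls and at 3.91, 3.89 and 3.94 in knockdown samples. Its groups did not overlap, but the difference was -0.14 (SE 0.10) on a dim probe set, with an adjusted p of 0.825 by limma. Equal array medians gave -0.25 and scaling by quantiles -0.22.

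In Fzd1, Fzd4 and Fzd6 single arrays stood out. Fzd1 was between 7.42 and 7.99 in controls and at 7.83, 7.62 and 6.24 in knockdown samples, so that knockdown replicate 3 alone stood below the controls. Fzd4, the receptor for norrin in brain and retinal vessels, was at 3.43, 3.73, 3.31 and 4.17 in controls and at 5.53, 3.58 and 3.75 in knockdown samples, with knockdown replicate 1 highest and control replicate 4 next. Fzd6, a receptor of planar cell polarity, showed the same leading arrays, at 5.92 in knockdown replicate 1 and 5.22 in control replicate 4, while the other arrays lay between 4.45 and 5.15. These were also the arrays with the highest endothelial and mural markers, but the order of the other arrays was not the same. Knockdown replicate 2, next in these markers with a mean of 5.88, was at 3.58 for Fzd4 and 4.97 for Fzd6. In control replicate 3, where the marker mean was lowest at 4.17, Fzd6 was at 5.15. The part of such cells in the values was not tested. Fzd3 and Fzd8, the first needed for axon tracts of the forebrain, had control means of 8.35 and 7.17 and knockdown means of 8.25 and 7.50, with overlapping arrays. Fzd5, Fzd7 and Fzd9 differed by less than 0.1 between group means. The co-receptor Lrp6 was at 7.61, 7.21, 7.13 and 6.97 in controls and at 7.19, 7.69 and 7.19 in knockdown samples. The difference of 0.13 (SE 0.20) was within the spread and became -0.041 without knockdown replicate 2. It was 0.021 with equal array medians and 0.23 by cyclic loess. Lrp5 was between 6.59 and 6.77 in controls and at 7.22, 6.56 and 6.61 in knockdown samples.

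**Figure D2:**
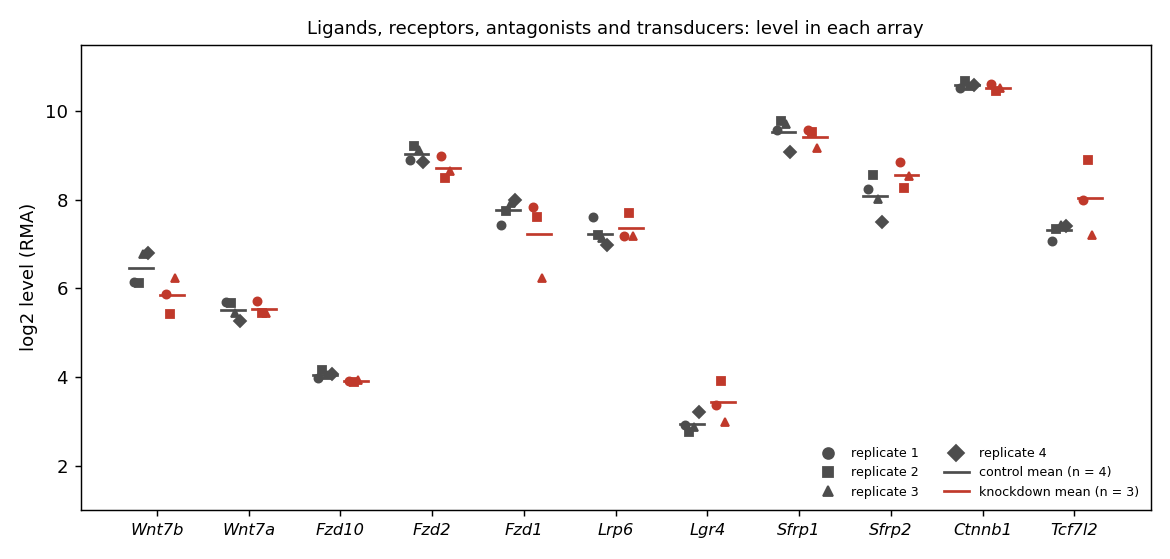
Log2 level (y axis) of 11 Wnt pathway genes in each array, with a symbol per replicate number and a bar at each group mean (control, n = 4; knockdown, n = 3). Fzd10 is the gene shown here whose groups do not overlap, Tcf7l2 is highest in knockdown replicate 2 at 8.90, and Fzd1 is lowest in knockdown replicate 3 at 6.24.

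R-spondins are secreted proteins that bind Lgr4, Lgr5 and Lgr6 and thereby remove the ubiquitin ligases Rnf43 and Znrf3, which otherwise clear Frizzled receptors from the surface. Lgr6 is not in the set. Of the 8 genes of this role that are, 5 had a higher mean in knockdown samples and 3 a lower one, with a median of 0.021. Lgr5 (Entrez 14160), which is also a target gene of beta-catenin, was at 3.55, 3.40, 3.43 and 3.47 in controls and at 3.77, 3.69 and 3.59 in knockdown samples. Every knockdown array lay above every control, by a difference of 0.22 (SE 0.10) with an adjusted p of 0.825 by limma. The difference was 0.11 when the array medians were set equal. The probe set was at percentile 24 of brightness. Lgr4 was dimmer still, at 2.91, 2.77, 2.88 and 3.20 in controls and at 3.37, 3.92 and 2.99 in knockdown samples, where knockdown replicate 3 lay among the controls. Znrf3, the brightest probe set of the group, was at 4.62, 5.44, 5.34 and 5.24 in controls and at 5.11, 5.37 and 5.02 in knockdown samples. Its difference was 0.0041 (SE 0.21), and it ranged from -0.17 without control replicate 1 to 0.097 without control replicate 2.

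Rnf43 was at 4.19 in control replicate 1 and between 3.35 and 3.56 in all other arrays of both groups, so its difference of -0.26 (SE 0.19) came down to -0.097 without that array. Rspo1 and Rspo2 were highest in control replicate 4, at 5.14 and 5.04, the array with the highest choroid plexus markers. The next highest array of both genes was knockdown replicate 2, at 4.98 and 4.26, which was also second in choroid plexus markers. Rspo3 was at 3.99, 3.78, 3.75 and 4.55 in controls and at 3.78, 4.49 and 5.45 in knockdown samples. Its highest array, knockdown replicate 3, was not among those with high choroid plexus markers, with a summed marker level of 31.7. Rspo4 lay between 3.50 and 4.03 in all arrays. The part of other cells in the R-spondin values was not tested.

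The antagonists comprise the Sfrp proteins, which bind Wnts, the Dkk proteins, of which Dkk1, Dkk2 and Dkk4 act on Lrp5 and Lrp6, the membrane protein Apcdd1, and Notum, which removes the lipid of Wnt proteins. Of these 10 genes 3 had a higher mean in knockdown samples and 7 a lower one, with a median of -0.044. Sfrp1 (Entrez 20377), which is abundant in radial glia, had the brightest probe set. It was at 9.57, 9.77, 9.70 and 9.08 in controls and at 9.57, 9.53 and 9.17 in knockdown samples, a difference of -0.11 (SE 0.20) that became 0.018 when knockdown replicate 3 was left out. It was 0.013 and 0.019 under other scalings of the arrays, by quantiles and by cyclic loess, but -0.21 with equal array medians. Sfrp2 was at 8.24, 8.56, 8.02 and 7.50 in controls and at 8.86, 8.26 and 8.53 in knockdown samples, so its knockdown arrays lay in the upper part of the control range or above it. Sfrp4 marks the lower end of the range of differences in the set, -0.88, with control replicate 1 at 6.87. Its other arrays lay between 3.78 and 4.57.

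Notum (Entrez 77583) was at 4.38, 4.25, 4.51 and 4.21 in controls and at 4.55, 4.69 and 4.54 in knockdown samples. Its groups did not overlap, although control replicate 3 came close to the lowest knockdown array. The difference was 0.26 (SE 0.11, 95% interval -0.0069 to 0.53) with an adjusted p of 0.825 by limma. It was 0.16 with equal array medians and 0.15 after scaling by quantiles. Dkk1 was between 3.90 and 4.04 in controls and at 3.89, 3.77 and 4.12 in knockdown samples. That difference of -0.041 (SE 0.12) turned to 0.04 without knockdown replicate 2. Dkk2 and Dkk4 lay between 3.60 and 3.97 in all arrays, as did Sfrp5 between 3.08 and 3.59, and Dkk3 had its highest and lowest arrays, 4.62 and 3.51, both among the controls.

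The proteins that carry the signal in the cytoplasm had bright probe sets, all 7 above the median of all genes. Of their genes 4 had a higher mean in knockdown samples and 3 a lower one, with a median of 0.06. Ctnnb1 (Entrez 12387) encodes beta-catenin, the signal carrier itself, and was the steadiest of them. It was at 10.53, 10.69, 10.57 and 10.59 in controls and at 10.61, 10.46 and 10.52 in knockdown samples. The difference was -0.07 (SE 0.10, 95% interval -0.30 to 0.17). Its sign turned by cyclic loess, to 0.061, and by quantiles, to 0.016, while equal array medians gave -0.17. Gsk3b, the kinase that marks beta-catenin, was between 9.36 and 9.53 in controls and at 9.22, 9.51 and 8.86 in knockdown samples. Axin1 and Apc, the scaffolds of the destruction complex, had control means of 6.71 and 7.05 and knockdown means of 6.86 and 7.22. Apc was at 7.83 in knockdown replicate 3 and between 6.68 and 7.19 elsewhere. Of the Dvl adaptors, which link Frizzled to Axin, Dvl1 was at 6.86 in knockdown replicate 1 and between 5.92 and 6.34 elsewhere, Dvl3 was at 9.45 in control replicate 1 and between 8.54 and 8.77 elsewhere, and Dvl2 was between 6.76 and 7.65 in controls and at 7.68, 6.71 and 7.20 in knockdown samples.

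The TCF/LEF factors varied more than any other role, with a median SD within groups of 0.76 over 3 genes beside 0.23 for all genes. Tcf7l2 (Entrez 21416) was at 7.08, 7.33, 7.42 and 7.40 in controls and at 7.99, 8.90 and 7.21 in knockdown samples. Knockdown replicates 1 and 2 lay above all controls and replicate 3 among them. The difference of 0.72 (SE 0.36, 95% interval -0.12 to 1.56, adjusted p = 0.825 by limma) was the largest of the set on the higher side. Leaving out knockdown replicate 2 brought it to 0.28, and leaving out replicate 3 to 1.13. In knockdown replicate 2, genes of the ventral telencephalon stood high as well. The homeobox genes Dlx1, Dlx2 and Dlx5 were at 8.65, 8.48 and 8.73 there and at 5.38, 5.61 and 6.31 in knockdown replicate 1, while no control exceeded 5.30. Of the other ventral markers, Gad2, Gsx2 and Lhx6 were also highest in knockdown replicate 2. Gad1 was not, at 3.97 there and 3.98 in control replicate 1. In knockdown replicate 1, Gad1 and Lhx6 were at 3.54 and 4.16, below the 3.98 and 4.66 of control replicate 1. The part of such cells in Tcf7l2 was not tested.

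Lef1 had equal means of 6.30 in both groups, but its arrays ranged widely. They were at 6.34, 5.80, 5.96 and 7.10 in controls and at 7.50, 5.84 and 5.55 in knockdown samples, with a difference of -0.0046 (SE 0.51, 95% interval -1.21 to 1.20). The value was -0.61 without knockdown replicate 1 and 0.37 without replicate 3. The highest arrays, knockdown replicate 1 and control replicate 4, were those in which Cdh5, the cadherin of endothelial cells, was at 8.54 and 8.37. In knockdown replicate 2 Cdh5 was at 7.53 while Lef1 was at 5.84, so the order of the arrays was not the same throughout. Tcf7l1, mostly a repressor, was at 5.31 in control replicate 1 and between 6.66 and 7.45 in the other arrays.

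**Figure D3:**
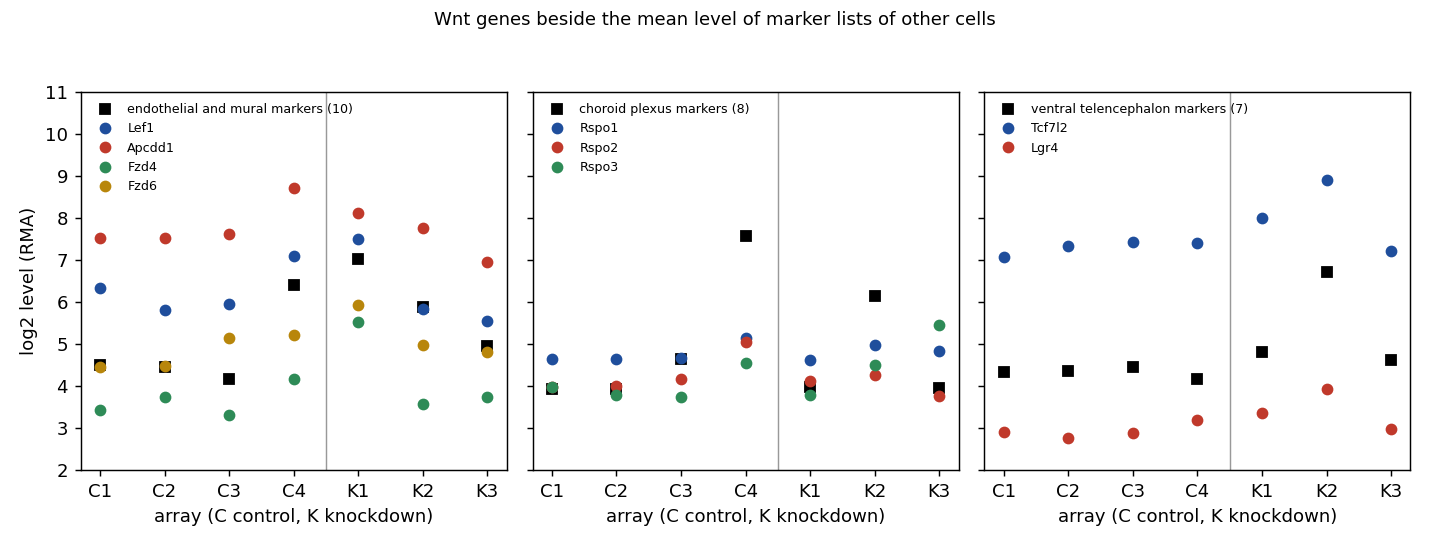
Log2 level (y axis) of Wnt genes as circles in each array (C1 to C4, controls; K1 to K3, knockdown samples), beside black squares for the mean of a marker list of other cells. Lef1, Fzd4 and Fzd6 are each highest in K1, and Tcf7l2 and Lgr4 in K2. Apcdd1, Rspo1 and Rspo2 are highest in C4, and Rspo3 in K3.

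The genes that beta-catenin is known to induce were set side by side, whatever their role. Of 10 such genes (Axin2, Nkd1, Sp5, Lef1, Lgr5, Rnf43, Znrf3, Apcdd1, Notum and Dkk1) 4 had a higher mean in knockdown samples and 6 a lower one. The median was -0.0076 and the differences lay between -0.26 and 0.26, beside a median of -0.001 for all genes. Axin2 (Entrez 12006), the target induced in nearly every tissue, was at 6.88, 6.19, 6.92 and 6.61 in controls and at 6.75, 6.61 and 6.56 in knockdown samples. All knockdown arrays lay inside the control range. The means were 6.65 ± 0.34 (SD, n = 4) and 6.64 ± 0.10 (SD, n = 3), and the 95% interval of the difference, -0.46 to 0.43, leaves room for a change of either sign within it. Without single arrays the value lay between -0.17 and 0.079.

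Nkd1, an inhibitor of Dvl, was at 6.44, 6.63, 7.17 and 6.63 in controls and at 6.99, 6.95 and 6.26 in knockdown samples. The difference of 0.012 (SE 0.24, 95% interval -0.55 to 0.58) ranged from -0.12 without knockdown replicate 1 to 0.25 without replicate 3. Sp5, a zinc finger factor that represses other Wnt targets, was at 4.56, 3.99, 4.17 and 3.89 in controls and at 3.91, 4.12 and 4.39 in knockdown samples. That difference of -0.011 (SE 0.19, 95% interval -0.46 to 0.44) ranged from -0.13 without knockdown replicate 3 to 0.12 without control replicate 1. Apcdd1, a target that is strong in brain vessels, was at 7.53, 7.53, 7.62 and 8.70 in controls and at 8.12, 7.77 and 6.94 in knockdown samples. Control replicate 4 was highest and knockdown replicate 1 next. The mean of the 10 endothelial and mural markers was 6.41 and 7.03 in these arrays, and next highest in knockdown replicate 2 at 5.88. Single markers differed in order: Tek and Pdgfrb were at 4.53 and 4.96 in control replicate 4 and at 4.69 and 5.05 in knockdown replicate 2. The Apcdd1 difference of -0.23 (SE 0.38) became 0.054 when control replicate 4 was left out and 0.10 when knockdown replicate 3 was. Leaving out knockdown replicate 1 gave -0.49. The part of vessel cells in Apcdd1 was not tested.

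**Figure D4:**
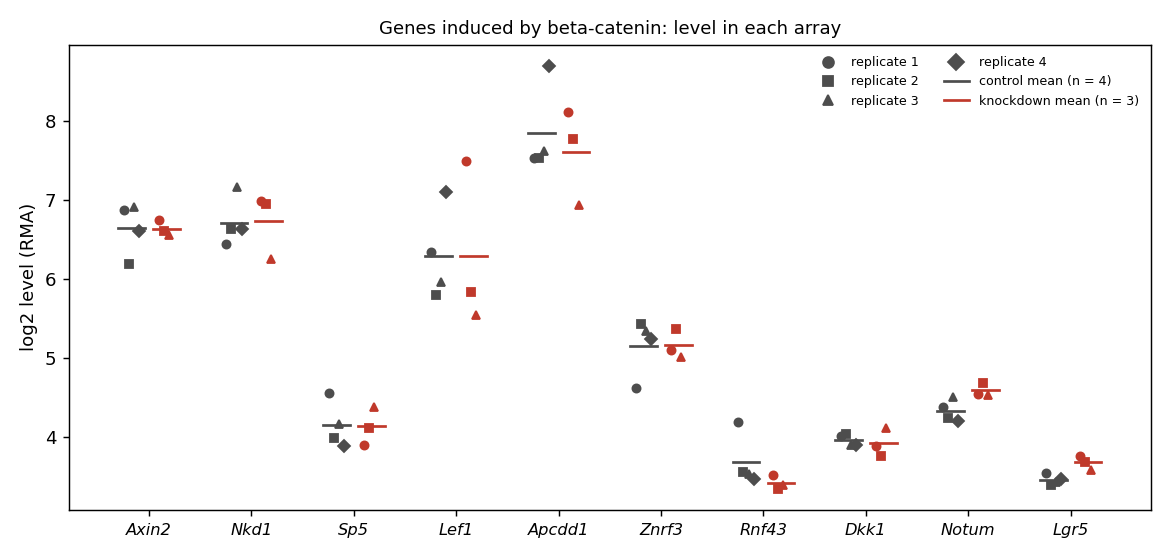
Log2 level (y axis) of 10 genes induced by beta-catenin in each array, with a symbol per replicate number and a bar at each group mean (control, n = 4; knockdown, n = 3). The means of Axin2, Nkd1 and Sp5 differ by at most 0.012, and Notum and Lgr5 are the genes whose groups do not overlap.

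The 250 bases before the start site are shown for Sp5 and Axin2, because these 2 targets are read as a measure of pathway output and their group means lay close together. The sequences are from RefSeq (GRCm38.p6), 5′ to 3′ on the plus strand, at chr2:70474673-70474922 for Sp5 and chr11:108920099-108920348 for Axin2. Capitals mark the words CTTTGAT and CTTTGTT on either strand, which are forms of the core bound by TCF/LEF factors and do not overlap in these windows.
Sp5: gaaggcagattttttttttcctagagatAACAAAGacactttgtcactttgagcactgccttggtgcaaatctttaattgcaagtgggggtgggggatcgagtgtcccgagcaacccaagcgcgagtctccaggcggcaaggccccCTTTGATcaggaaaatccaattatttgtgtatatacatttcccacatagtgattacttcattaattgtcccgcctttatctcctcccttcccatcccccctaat
Axin2: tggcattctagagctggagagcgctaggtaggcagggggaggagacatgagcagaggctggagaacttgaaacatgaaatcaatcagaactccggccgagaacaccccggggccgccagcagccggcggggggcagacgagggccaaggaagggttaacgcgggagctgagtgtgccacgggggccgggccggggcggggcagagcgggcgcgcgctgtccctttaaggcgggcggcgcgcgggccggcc

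The Sp5 window holds both words, CTTTGAT starting 104 bases before the start site and CTTTGTT, on the minus strand, in a match that starts 222 bases before it. The Axin2 window holds neither, which says only that these letters are not in it. RefSeq windows were found for 40 of the 62 Wnt genes, 49 windows in all. At least 1 of the words was in 6 of the 49 windows (12.2%), those of Sp5, Dkk1, Fzd7, Tcf7l2, Wnt11 and Wnt5b, beside 8.06% of all 32851 windows of this length. CTTTGAT was in 3 of the 49 (6.12%, beside 3.21%) and CTTTGTT in 4 (8.16%, beside 5.03%). A match is a description of the letters and does not show that a factor binds there.

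The pathway genes outside the set were read from lists of secretion factors, other receptors, planar cell polarity genes, destruction complex kinases, nuclear partners of beta-catenin and further responsive genes. All 71 were measured. None had an adjusted p under 0.05 by limma, and the median difference was -0.007, with 33 genes higher and 38 lower. At an unadjusted p under 0.05 there were 2 higher (Jag1 and Pygo1) and 1 lower (Ror1), beside 2.20% and 3.61% of all genes. Jag1, a Notch ligand that responds to Wnt, was at 4.84, 5.39, 4.79 and 5.12 in controls and at 5.83, 5.90 and 5.39 in knockdown samples, a difference of 0.67 (SE 0.20). Its lowest knockdown array and its highest control were both at 5.39. Pygo1, a nuclear partner of beta-catenin through Bcl9, was at 6.52, 6.28, 6.43 and 6.42 in controls and at 6.86, 6.56 and 6.86 in knockdown samples (0.35, SE 0.12). Ror1, a Wnt5a receptor, was at 3.89, 3.94, 3.98 and 4.04 in controls and at 3.50, 3.83 and 3.61 in knockdown samples (-0.32, SE 0.11). The groups of Pygo1 and Ror1 did not overlap, nor did those of the Wnt antagonist Wif1, at 3.70 to 3.78 in controls and 3.79 to 3.94 in knockdown samples. These are 3 of the 71 genes, a share no higher than the 5.67% of all genes. The adjusted p by limma was 0.825 for Jag1, Pygo1 and Ror1.

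By role, none of the 15 surface genes other than Ror1 and none of the 14 nuclear partners other than Pygo1 reached an unadjusted p under 0.05. The same held for all of the 2 secretion genes (Porcn and Wls), the 10 planar polarity genes and the 19 genes of the destruction complex and its kinases, and for 10 of the 11 further responsive genes. The planar polarity genes, which include Vangl2 and the Celsr cadherins, had 5 higher and 5 lower means and a median of 0.0059. The destruction complex list, with 7 higher and 12 lower, had a median of -0.09, and 18 of its 19 probe sets were brighter than the median of all genes.

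Differences followed the level of the probe set in the whole table, and the Wnt genes are set beside genes of like level. Of the 7 Wnt genes with a mean level of 8 and above, 1 had a higher mean in knockdown samples and 6 a lower one, with a median of -0.109 beside -0.161 for all genes of that level. Between 6 and 8 there were 16 Wnt genes, 11 higher and 5 lower, with a median of 0.088 beside -0.099. The 18 genes between 4 and 6 had a median of 0.061 beside 0.042, and the 21 below 4 had -0.020 beside 0.031.

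**Figure D5:**
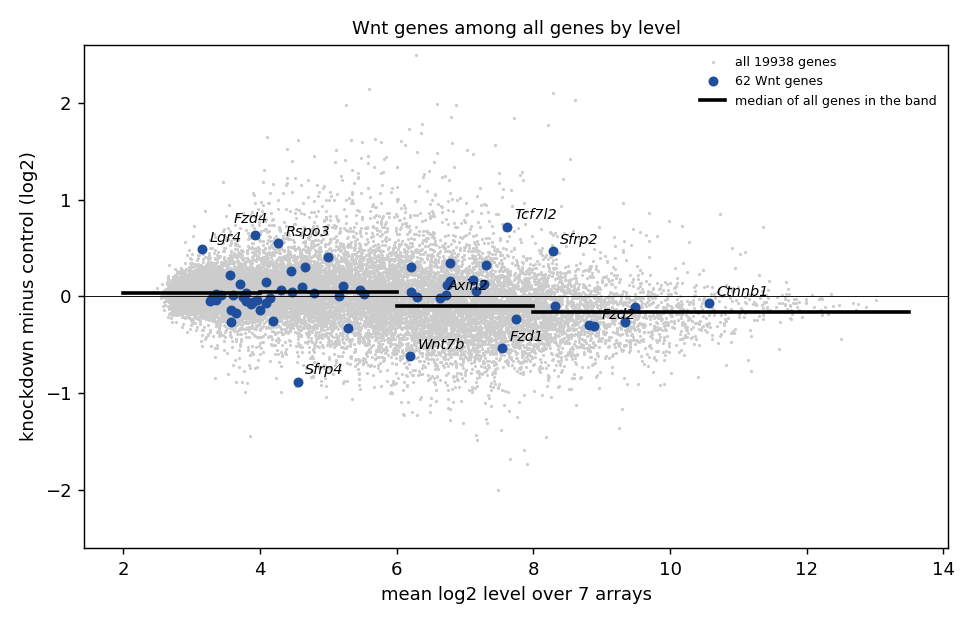
Log2 difference between knockdown and control (y axis) against the mean log2 level over 7 arrays (x axis) for all 19938 genes (grey) and the 62 Wnt genes (blue), with the median of all genes in each level band as a black bar. The Wnt genes lie within the cloud of all genes, and Sfrp4 and Tcf7l2 are farthest from 0.

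The spread within groups differed among the Wnt genes. The median SD within groups was 0.26, beside 0.23 for all genes, and 8 of the 62 (12.9%) had an SD above 0.53, the 90th percentile of all genes. They were Sfrp4 (1.07), Lef1 (0.80), Tcf7l1 (0.76), Fzd4 (0.74), Rspo3 (0.60), Apcdd1 (0.59), Fzd1 (0.58) and Tcf7l2 (0.55), which spans antagonists, receptors, an R-spondin and every TCF/LEF factor measured. Single arrays led many of the genes. Knockdown replicate 2 was the lowest of the 7 arrays for 19 Wnt genes (30.6%, beside 13.9% of all genes) and knockdown replicate 1 the highest for 17 (27.4%, beside 16.9%). These shares describe the arrays and were not tested.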

How the data were processed

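The members and gene lists were chosen with earlier results of these data known. The deposited log2 levels were made by the authors with RMA (Affymetrix Expression Console 1.2, from the submitters' processing notes), and no source used here gives the genome build. Of 35556 probe sets, 21789 carry a single gene symbol in the array annotation, 1621 carry several and 12146 carry none. Entrez identifiers tied 21698 of the first kind to RefSeq symbols. A gene was read from its probe set with the highest mean over the 7 arrays, which gave 19938 genes. Among the Wnt genes, Wnt4 had more than 1 probe set. The groups were compared with limma 3.58.1 (R 4.3.3), two-sided and without covariates, adjusting by Benjamini-Hochberg over all genes. On simulated data for this comparison (19938 genes), 200 genes were given a difference. At 1 log2 unit 48% of them were found and at 2 log2 units 83%, and each run made 8.8 false calls on average. The simulated noise was normal and independent between genes, without the shared differences in cell markers between samples, so these rates may not hold for the real arrays. By rule, differences are given for Wnt genes with an unadjusted p under 0.05 or groups without overlap, the brightest of each role and the beta-catenin targets, and for other pathway genes with an unadjusted p under 0.05. Array values of further genes, and marker genes named singly, were chosen after their values were seen. Since the number of embryos is unknown, p-values measure the spread between these samples, which may be technical. No block was used for the replicate numbers. Alternatives changed the variance model, array weights, scaling, filter, choice of probe set, block and arrays included.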

Additional observations from a re-analysis of the deposited data

Results flagged for a closer look

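In 5 of the 62 Wnt genes, 1 control array stood farther from the other 3 than Dixon's 95% critical value allows. For normally distributed values, chance alone marks about 1 in 20 groups in this way. The share over all genes was not counted, so these 5 cannot be set against the background of these arrays. Control replicate 4 was the highest for Apcdd1, at 8.70, and for Rspo1, at 5.14. Control replicate 1 was the highest for Rnf43, at 4.19, and for Dvl3, at 9.45, and the lowest for Wnt6, at 3.70. Groups of 3, as in the knockdown samples, were not examined in this way.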

How the results depend on the processing

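No Wnt gene had an adjusted p under 0.05 by limma in any of the 21 alternatives. The 20 named genes (17 Wnt genes and 3 other pathway genes) gave 411 recomputed differences, of which 49 had the opposite sign, and 10 of the genes never turned. Each gene that turned had a difference smaller than its SE, and the cause was not tested. With array weights Axin2 was 0.037, Lef1 0.32 and Znrf3 -0.064. With cyclic loess Axin2 was 0.055, Ctnnb1 0.061, Lef1 0.038, Sfrp1 0.019 and Znrf3 -0.028. With a further quantile normalization Axin2 was 0.022, Ctnnb1 0.016, Sfrp1 0.013 and Znrf3 -0.084. With equal array medians, which shift the median of all genes to -0.107 and that of the Wnt genes to -0.093, Nkd1 was -0.094 and Znrf3 -0.10, and all genes split into 183 higher and 1507 lower at an unadjusted p under 0.05. Differences that kept their sign moved with that shift too, to -0.12 for Axin2, -0.17 for Ctnnb1, -0.15 for Dkk1, -0.11 for Lef1, -0.21 for Sfrp1 and -0.12 for Sp5. With quantiles the Wnt median was -0.033 beside -0.036 for all genes, and with array weights Apcdd1 was -0.027.

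The count of Wnt genes higher at an unadjusted p under 0.05, 0 as reported, was 3 with array weights (2.58% of all genes), 2 with an intensity trend (2.51%) and 1 with cyclic loess (2.42%) and with quantiles (1.84%). Lgr4, Lgr5 and Tcf7l2 were these genes. The count lower, 1 as reported, was 4 with equal array medians (Fzd10, Fzd2, Wnt7b and Wnt8a), beside 7.56% of all genes. It was 0 with array weights, cyclic loess, quantiles, the intensity trend, the robust prior and the dimmest 50% left out. That filter also left 0 Wnt genes whose groups do not overlap, with 29 Wnt genes tested.

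Replicate numbers 1 to 3 were checked for pairing: deviations of same-numbered arrays correlated at 0.0278, -0.0507 and 0.0716. Differently numbered arrays correlated between -0.196 and 0.14, a range that holds the same-numbered values. This check cannot tell whether same-numbered samples shared a litter or a batch, and the labels do not say what the numbers mean. With the replicate block, in which control replicate 4 has no partner, Apcdd1 was 0.054, Lef1 0.26 and Nkd1 -0.016, and 2 Wnt genes were lower at an unadjusted p under 0.05 (Sfrp4 and Wnt7b), beside 4.22% of all genes.

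Leaving out 1 array, or control replicate 4 with a knockdown array, gave ranges of -0.49 to 0.39 for Apcdd1, -0.17 to 0.079 for Axin2, -0.16 to 0.04 for Dkk1, -0.61 to 0.64 for Lef1 and -0.13 to 0.25 for Lrp6. They were -0.14 to 0.25 for Nkd1, -0.33 to 0.018 for Sfrp1, -0.22 to 0.12 for Sp5 and -0.17 to 0.10 for Znrf3. The omission of control replicate 4 with knockdown replicate 1 or 2 was chosen after seeing the data. The counts ranged from 0 to 3 higher, 0 to 2 lower and 3 to 15 without overlap. The shares of all genes in these fits were 1.51% to 4.52% higher, 2.35% to 8.17% lower and 8.35% to 28.8% without overlap. With 4 and 3 arrays, intervals of differences were wide, as for Lef1 (-1.21 to 1.20).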
